A study of Mus musculus with 3 samples.

Results

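Tet2 CLIP peaks were examined in 10 genes listed together for short-lived mRNAs, a property not measured here. They are the Zfp36 family (Zfp36, Zfp36l1 and Zfp36l2) and Jun, Jund, Egr1, Egr3, Ier2, Ier3 and Myc, most of them known as growth-factor-induced. A peak was counted for a gene when its midpoint lay in the gene's span on the mouse build mm10, which gave 35 of the 8196 peaks listed over 3 libraries. Replicate 1 held 15 of them, replicate 2 held 11 and replicate 3 held 9. The libraries form 1 group, described in the series as biological triplicates, and the stated aim was a systematic search for RNAs bound by Tet2. All 3 came from mast cells raised from bone marrow of C57BL/6 mice, grown for 4 to 6 weeks with interleukin-3 (10 ng/ml) and stem cell factor (5 ng/ml). The protein pulled down with an antibody was the cells' own Tet2, a dioxygenase acting on 5-methylcytosine, after ultraviolet light had fixed it to RNA. No genetic change and no stimulus of the IgE receptor is named in the labels, and no control-antibody or input library was analysed here.

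Immediate-early genes are switched on within minutes of a signal, without new protein synthesis, and most of their mRNAs are also degraded quickly. Rapid decay often depends on AU-rich elements in the mRNA. The Zfp36 proteins bind such elements through a pair of zinc fingers and bring in the CCR4-NOT complex, which removes the poly(A) tail. In mast cells, signals from Kit and from the IgE receptor induce Jun and Egr family genes as well as Zfp36.

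Peak heights, which the authors scaled to a sum of 1 in each library, came in equal steps, with every height within 0.05 of a whole number of them. A step is called a unit below, and it is not known whether it stands for 1 read. The libraries held 3019, 2800 and 2377 peaks and 19213, 18270 and 15431 units in replicates 1, 2 and 3, with a median peak of 4 units in each. Mast cell markers listed for a check of the cell type held a peak in 10 of 15 genes, where the share of all protein-coding genes was 14.1%. The marker lists, like all settings, were chosen with earlier results of these data known. The markers of macrophages held 1 of 7, those of neutrophils 0 of 7, those of lymphocytes 0 of 7 and those of erythroid and megakaryocytic cells 1 of 7. Summed over the mast cell markers, the height was 337, 307 and 266 units, against at most 14 units in any library for each of the other lists.

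Every one of the 10 genes had a Tet2 peak in 1 library or more, against a background of 14.1% of 21900 protein-coding genes and 7.97% of the 7939 with spans of at most 10000 nt. The 10 genes were chosen with earlier results of these data known, so that count and those that follow are descriptions and support nothing. A peak in every library was found for 6 of 10: Zfp36l2, Jun, Jund, Egr1, Egr3 and Ier3 (background 3.16%, or 1.89% at spans of at most 10000 nt). Among protein-coding genes with any peak, that share was 22.5%. Zfp36l1 held peaks in replicates 1 and 3, Ier2 in replicates 1 and 2, and Zfp36 and Myc in replicate 1 alone. By library, 10, 7 and 7 of the genes held a peak in replicates 1, 2 and 3, where the background was 8.55%, 8.04% and 7.02%, or 5.03%, 4.46% and 3.99% at spans of at most 10000 nt. Of the 3086 protein-coding genes with any peak, 1872, 1761 and 1537 held one in these libraries. RNA levels were not measured, so more binding by Tet2 and more of the RNA cannot be told apart, nor can fewer cells with the RNA and less RNA per cell.

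The peaks were low. Of the 35 peaks, 16 stood at 3 units, 7 at 4 units and 12 at 5 units or more, up to 13. The share at 5 units or more was 34.3%, against 35.0% of the 7100 peaks in other protein-coding genes. Their median width was 55 nt, as in the other protein-coding genes. Together they took 0.370%, 0.285% and 0.207% of the summed height of replicates 1, 2 and 3, or 0.287% ± 0.0811 (SD, n = 3). With only peaks of at least 5 units counted, 5 of the 10 genes held a peak (background 5.65%): Zfp36l2, Jund, Egr1, Egr3 and Ier3. Egr3 was then the 1 gene with a peak in every library (background 1.26%). All 10 genes held a peak to begin with, so genes with a peak are the nearer comparison. Of the 3086 protein-coding genes with a peak, 1237 held one of at least 5 units and 276 held such peaks in every library.

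**Figure D1:**
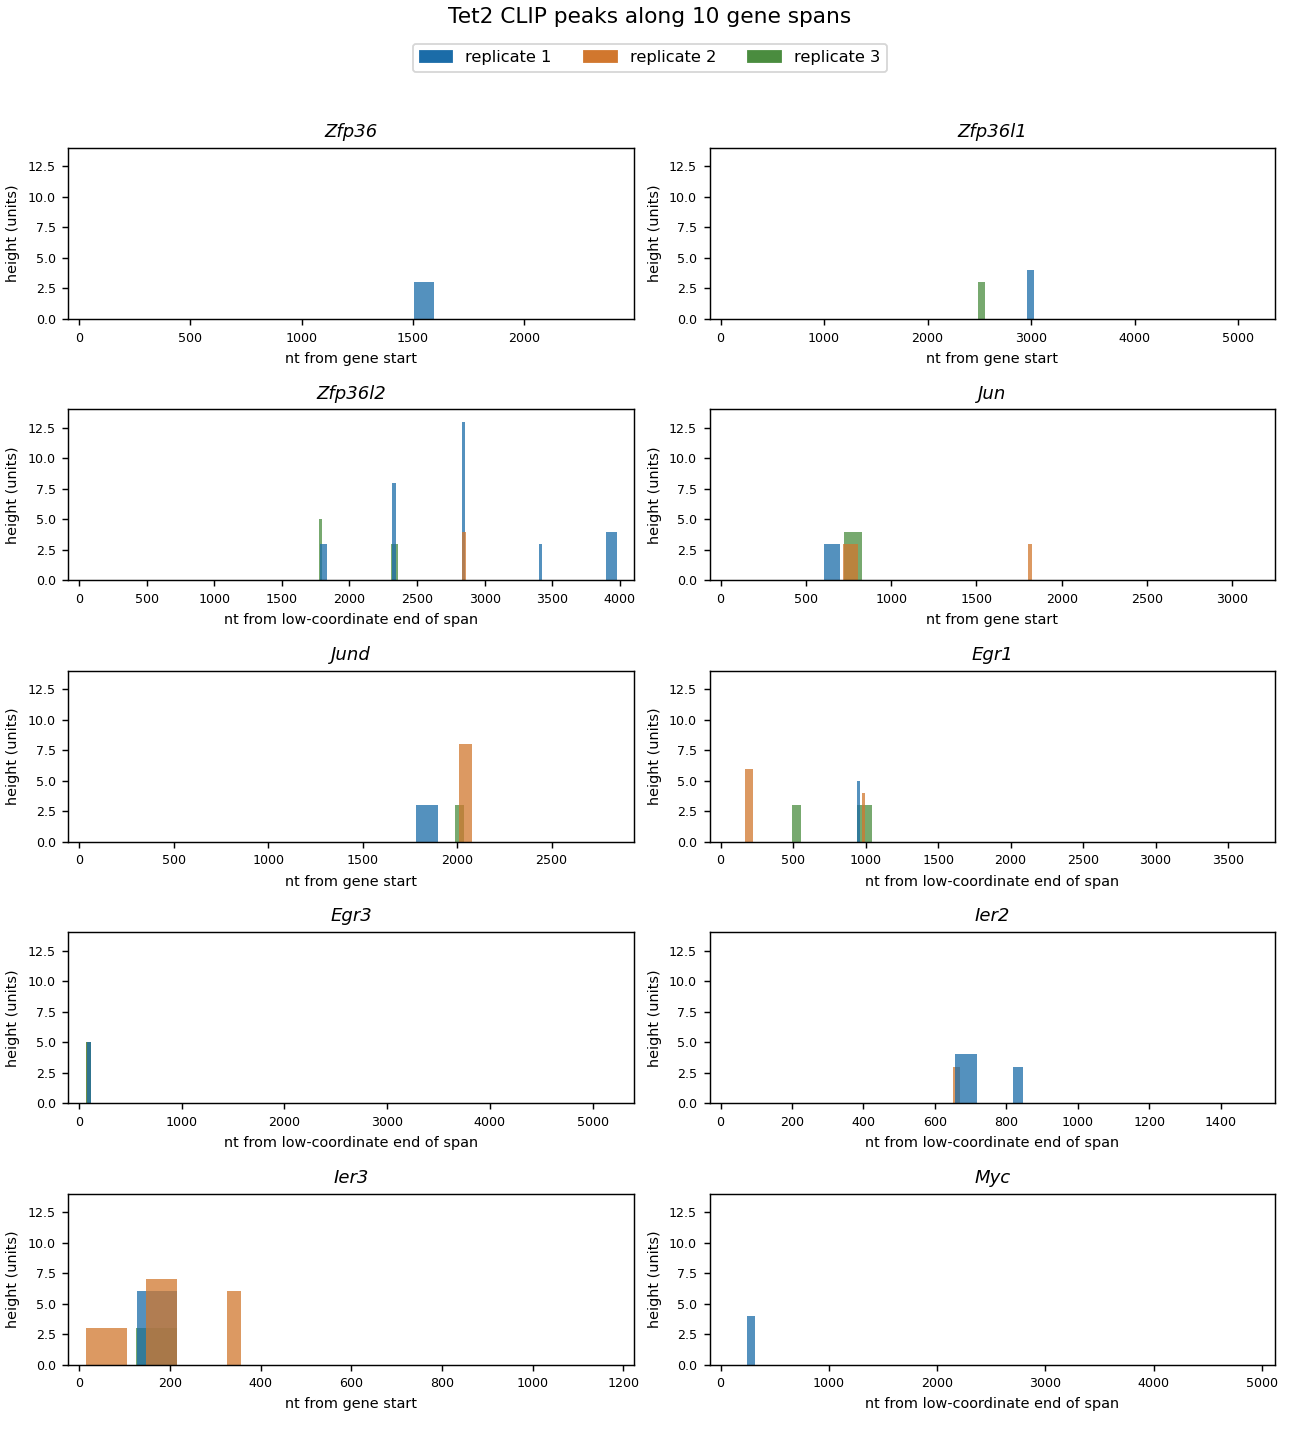
Each panel is 1 gene span, with the position along the span in nt on the x axis and the height of each peak in units on the y axis. The x axis starts at the gene start for Zfp36, Zfp36l1, Jun, Jund and Ier3 and at the low-coordinate end for the others, and colours mark the 3 libraries. The 13-unit peak of Zfp36l2 in replicate 1 is the tallest, and the Ier3 peaks crowd toward the gene start.

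Among the Zfp36 family, Zfp36l2 carried most of the signal. Zfp36l2, which encodes a zinc finger protein that promotes mRNA decay, lies on chromosome 17 (84183924 to 84187947, a span of 4024 nt). It held 5, 1 and 2 peaks in replicates 1, 2 and 3, with summed heights of 31, 4 and 8 units (14.3 ± 14.6, SD, n = 3). Replicate 1 stood far above both other libraries, and the SD was as large as the mean. Of the 3086 protein-coding genes with a peak, 98 (3.18%) held at least its 8 peaks, and the median was 2.

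The 8 peaks of Zfp36l2 formed 5 loci, taking overlaps of at least 1 nt as 1 locus, and no locus was found in all 3 libraries. The tallest lay at chr17:84186760-84186775 in replicate 1, with 13 units. Replicate 2 had a peak of 4 units with the same first base, at chr17:84186760-84186782. At chr17:84186238-84186268, replicate 1 had 8 units inside a wider peak of 3 units in replicate 3. Another locus began at position 84185704 in both replicate 3 (5 units) and replicate 1 (3 units). The remaining 2 loci, of 3 and 4 units, were seen in replicate 1 alone. Each library that shared a site with another thus shared it at a different height, and the single replicate 2 peak matched the tallest site of replicate 1.

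Zfp36 and Zfp36l1 carried little by comparison. Zfp36, which encodes tristetraprolin, the founding member of the family, lies on chromosome 7 (28376784 to 28379228) and held 1 peak of 3 units at chr7:28377632-28377721 in replicate 1. That peak began 1507 nt from the gene start, and replicates 2 and 3 listed none. Zfp36l1, a paralog with the same kind of zinc fingers, lies on chromosome 12 (80107760 to 80113013). It held a peak of 4 units at chr12:80109984-80110056 in replicate 1 and one of 3 units at chr12:80110454-80110528 in replicate 3. The peaks were 397 nt apart, so Zfp36l1 had no site common to any pair of libraries. By mean summed height, the order was Zfp36l2 (14.3 units), Zfp36l1 (2.33 ± 2.08) and Zfp36 (1.00 ± 1.73, SD, n = 3 each), and these heights are not set per length or per RNA level. The ranges of Zfp36l2 and Zfp36l1 met at 4 units (replicate 2 of Zfp36l2 and replicate 1 of Zfp36l1), and Zfp36l1 and Zfp36 overlapped, while every library of Zfp36l2 stood above the 3 units that Zfp36 reached.

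**Figure D2:**
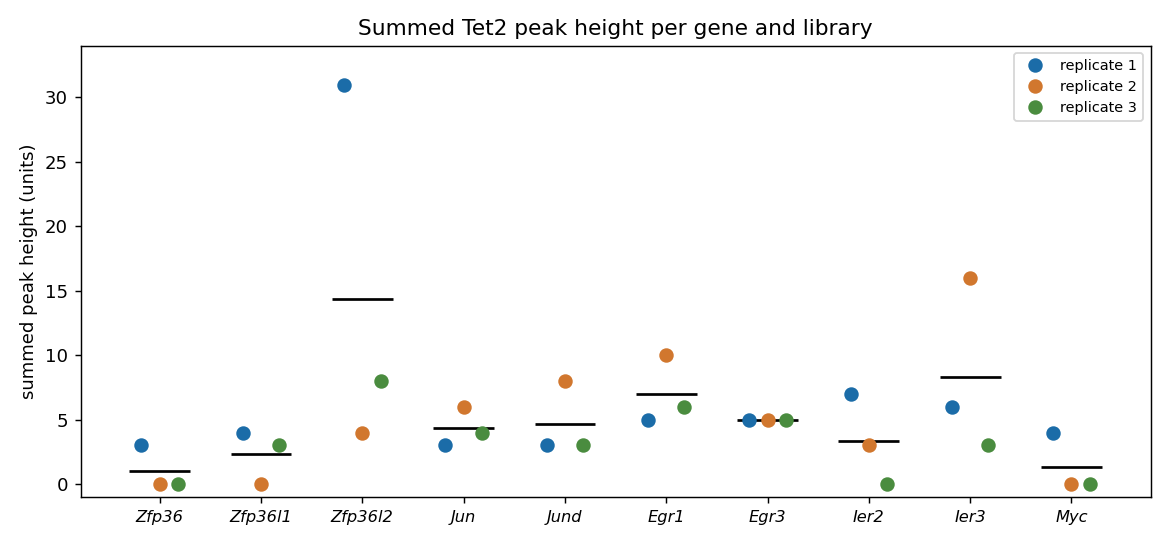
Summed peak height in units (y axis) of each of the 10 genes (x axis), with 1 point per library and a bar at the mean of the 3. Points at 0 are libraries with no listed peak, and the Zfp36l2 point of replicate 1, at 31 units, lies above all others.

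The genes of AP-1 subunits, Jun and Jund, held peaks in every library. Jun, which encodes c-Jun, lies on the minus strand of chromosome 4 (95049036 to 95052222) and is known as a gene without introns. Its summed height was 3, 6 and 4 units in replicates 1, 2 and 3 (4.33 ± 1.53, SD, n = 3). Replicates 2 and 3 shared a locus at chr4:95051396-95051503, 719 to 721 nt from the gene start at its near edge, with 3 and 4 units. The replicate 1 peak at chr4:95051523-95051616 (3 units) lay 19 nt beyond that locus and did not overlap it. Replicate 2 also had a peak of 3 units at chr4:95050396-95050422. Jun was thus found in each library close to the same place, but at no locus common to all.

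Jund, which encodes the AP-1 subunit JunD and is likewise known as a single-exon gene, lies on the plus strand of chromosome 8 (70697739 to 70700616). Its only peak in each library reached 3, 8 and 3 units (4.67 ± 2.89, SD, n = 3), so replicate 2 was the high one. The replicate 2 peak at chr8:70699748-70699819 overlapped the replicate 3 peak at chr8:70699728-70699775 by 28 nt. The replicate 1 peak, at chr8:70699523-70699639, ended 88 nt short of them. All 3 lay between 1784 and 2009 nt from the gene start by their near edges, in the part of the span farther from the start. In Jun, 3 of the 4 peaks lay nearer the start, at 606 to 721 nt.

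Egr3 had the most even signal. Egr3, a zinc finger transcription factor of the early growth response family, lies on chromosome 14 (70077317 to 70082613, 5297 nt). It held 1 peak of 5 units in each library, or 0.0286% ± 0.00336 of the summed height (SD, n = 3). The peaks spanned chr14:70077393-70077430, chr14:70077384-70077430 and chr14:70077385-70077430 in replicates 1, 2 and 3. All 3 ended on the same base, and their first bases lay within 9 nt of each other. Their midpoints were 90.0 to 94.5 nt from the low-coordinate end of the span.

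Egr1, the best known member of the same family, lies on chromosome 18 with a span of 3750 nt. Its summed height was 5, 10 and 6 units (7.00 ± 2.65, SD, n = 3), in 1, 2 and 2 peaks. Peaks of 5, 4 and 3 units in replicates 1, 2 and 3 joined into 1 locus with midpoints 951 to 990.5 nt from the low-coordinate end. The replicate 3 peak, 106 nt wide, covered both of the others, which were 13 and 7 nt wide and lay 24 nt apart. Sharing by all 3 at Egr1 therefore rested on the wide peak of replicate 3. Replicate 2 had its tallest Egr1 peak elsewhere, with 6 units at a midpoint 194.5 nt from that end, and replicate 3 had a further peak of 3 units at 522.5 nt.

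Ier3 carried a cluster of peaks at its start. Ier3, a stress-induced regulator of cell survival also called IEX-1, is the shortest of the 10 spans (1199 nt, plus strand of chromosome 17, 35821713 to 35822911). Its summed height was 6, 16 and 3 units (8.33 ± 6.81, SD, n = 3), in 1, 3 and 1 peaks, and replicate 2 was the high library. At 4.17 peaks per 1000 nt over the 3 libraries, it was among the 18 densest of 633 protein-coding genes with a peak and a span of at most 10000 nt, where the median was 0.356. The shared locus spanned chr17:35821841-35821928, chr17:35821861-35821928 and chr17:35821839-35821928 in replicates 1, 2 and 3, with 6, 7 and 3 units. As at Egr3, all 3 peaks ended on the same base. It began 126 to 148 nt from the gene start.

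Replicate 2 alone had a further pair of Ier3 peaks, at chr17:35821728-35821818 (3 units) and chr17:35822038-35822068 (6 units). The first of these began 15 nt from the gene start and is the one peak of the 10 genes for which sequence was at hand. Its beginning is shown to place the edge of the peak in the gene. The bases come from the RefSeq promoter table of GRCm38.p6 at chr17:35821723-35821752, plus strand, 5′ to 3′. The 25 bases inside the peak are in capitals and the 5 before it in lower case.
Ier3: gccacTCGCGCAACCATCTCCACACCATGA

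**Figure D3:**
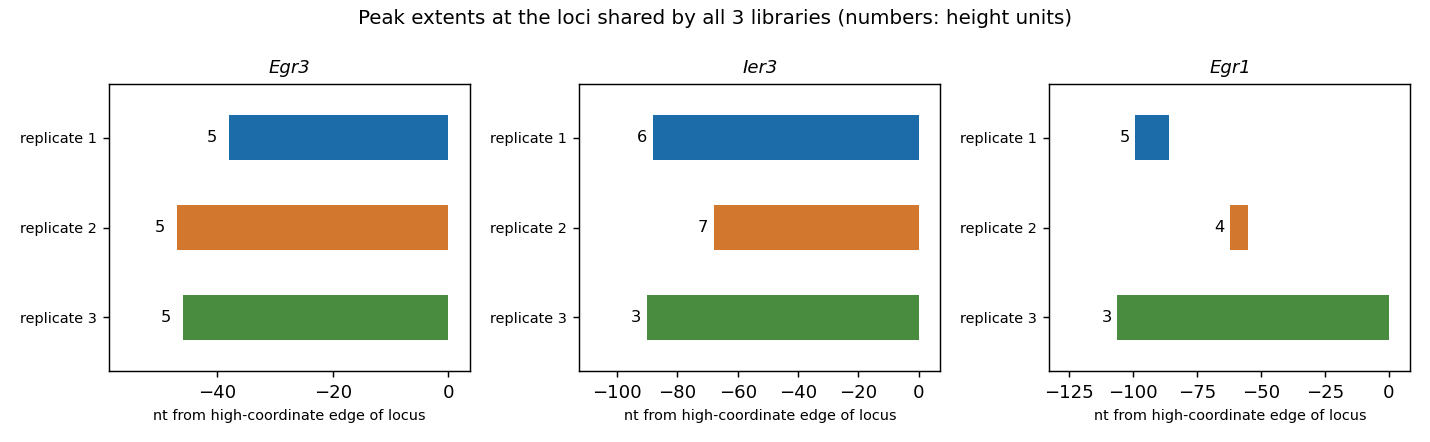
Extent of the peak of each library (bars, 1 row per replicate, heights in units beside them) at the loci of Egr3, Ier3 and Egr1 found in all 3 libraries, in nt from the high-coordinate edge (x axis). The bars of Egr3 and Ier3 end on the same base in all 3 libraries, and those of replicates 1 and 2 at Egr1 do not touch each other.

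Ier2 and Myc were seen in fewer libraries. Ier2, a nuclear protein induced by growth factors, lies on chromosome 8 (84661331 to 84662852, 1522 nt) and had summed heights of 7, 3 and 0 units (3.33 ± 3.51, SD, n = 3). Replicates 1 and 2 shared a site there, at chr8:84661986-84662048 (4 units) and chr8:84661983-84661999 (3 units), and replicate 1 had a further peak of 3 units at chr8:84662150-84662177. Replicate 3 listed no Ier2 peak. Myc, a transcription factor that drives cell growth, lies on chromosome 15 (61985341 to 61990361). It held 1 peak of 4 units in replicate 1 at chr15:61985586-61985657, with a midpoint 280.5 nt from the low-coordinate end, and none in replicates 2 and 3. An unlisted peak means only that none was called at the lowest heights of these lists, 2 or 3 units.

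Across the 10 genes, the 35 peaks formed 23 loci, of which 3 were found in all 3 libraries, 6 in a pair and 14 in 1 library. A peak of another library was overlapped by 21 of the 35 peaks, against 3208 of 7100 peaks (45.2%) in other protein-coding genes. This difference was not tested. Loci found in 1 library were not counted for other genes, so the 14 have no background. The loci in all 3 were those of Egr1, Egr3 and Ier3, so 3 of 10 genes held one (background 2.11%, or 1.22% at spans of at most 10000 nt). Among protein-coding genes with any peak, 22.5% held a peak in all 3 libraries and 14.97% a locus in all 3. With peaks linked when their midpoints lay within 200 nt, Jun and Jund joined them, making 5 genes. Jund joined only through its replicate 3 peak. Its midpoints in replicates 1 and 2, 1842 and 2044.5 nt from the gene start, lay farther apart than the limit. With a reciprocal overlap of at least 0.5 of each peak, 2 loci were left, those of Egr3 and Ier3, and with peaks of at least 5 units only Egr3 was left. Without replicate 1 the remaining pair shared 5 loci, without replicate 2 also 5, and without replicate 3 the pair shared 4. The backgrounds of 2.11% and 1.22% hold for overlaps of at least 1 nt in all 3 libraries. No share of all protein-coding genes with a shared locus was computed under the other settings, so those counts have nothing beside them. Overlapping peaks of different libraries made 14 pairs, and 8 of these (57.1%) had the same first or last base. That share was 57.4% of 2385 pairs in other protein-coding genes, so common edges were as frequent there. Among the 10 genes, pairs with a common edge came only from the shared loci of Egr3 and Ier3 and from Zfp36l2. The share thus rests on few loci, some counted in several pairs.

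The peaks of the 10 genes were also placed along their spans. In the outer 10% at each end lay 7 of the 35 peaks (20.0%). Both ends together make up that same share of a span. In other protein-coding genes with spans of at most 10000 nt, 491 of 1358 peaks (36.2%) lay there. The difference was not tested because peaks are not replicates. The 7 peaks of the 10 genes were the 3 of Egr3, which form 1 locus, and 1 each of Egr1, Ier3, Zfp36l2 and Myc. No other gene span overlapped any of the 10, so each peak midpoint lay in 1 annotated gene span. The strand of the peaks was not used, so RNA from the opposite strand cannot be told apart. Within 1000 nt outside the spans there were 4 more peaks. Replicate 3 had a pair of 3 units each in the long non-coding gene Gm36279 next to Zfp36l2, 225 and 624 nt from its span, and 1 of 4 units in Flot1, 753 nt from Ier3. Replicate 2 had 1 of 3 units 951 nt from Ier2, in no gene span. The spans came without exons, so where in the mRNA the peaks lie was not analysed here.

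The promoter windows of RefSeq, from 250 bases before to 50 after the gene start, covered Zfp36, Zfp36l1, Jun, Jund and Ier3. They were searched on both strands for motifs known from signal-induced genes. The CArG box, the element bound by serum response factor, was found in the window of Zfp36 and in 1.63% of 32851 windows. The AP-1 motif TGANTCA and the TATA motif TATAAA were each found in the window of Zfp36l1, and in 7.81% and 13.6% of all windows. The cAMP response element TGACGTCA and the E-box CACGTG, which occurred in 1.79% and 7.15% of all windows, matched in none of the 5. A match is a run of letters and not a measured site, and these CLIP data measured RNA.

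Further genes of these pathways were listed with their own counts, and they are not set against the 10, which were chosen with results known. Among 44 further immediate-early genes, 13 had a peak in some library (29.5%, background 14.1%), with 9, 6 and 3 bound in replicates 1, 2 and 3, and none held a peak in every library. The mean share per library was 13.6% ± 6.82 (SD, n = 3), and replicate 3, at 6.82%, lay near the background of that library. Nr4a2, an orphan nuclear receptor (6, 0 and 5 units), had the tallest peak. A tallest peak of 5 units was found in Per1, a circadian repressor (0, 4 and 5 units), the small Maf protein gene Mafk (5, 3 and 0 units), Csrnp1, which encodes a nuclear protein (0, 5 and 0 units), and the phosphatase gene Dusp5 (5, 0 and 0 units). A peak of Nr4a2 also lay in the span of LOC105244150. Fos, Fosb, Junb, Egr2, Nr4a1, Atf3 and Dusp1 were among the 31 with no listed peak.

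Of 38 genes for AU-rich element binding and mRNA decay, the machinery with which Zfp36 proteins act, 13 held a peak (34.2%, background 14.1%), and 3 did so in every library (7.89%, background 3.16%). The mean share per library was 19.3% ± 1.52 (SD, n = 3), where the background ran between 7.02% and 8.55%. Hnrnpd, the AU-rich element binding protein AUF1, reached 7, 8 and 4 units, and Ddx6, a helicase of decapping complexes, reached 6, 3 and 8 units. Both had a locus shared by all 3 libraries. Cnot3, a CCR4-NOT subunit, reached 6, 0 and 4 units, and Dcp1b, a decapping cofactor, reached 5, 4 and 3 units, though their peaks also fell in the spans of Leng1 and Cacna1c. The median span in this list was 30951 nt, against 17146 nt for all protein-coding genes and 3469 nt for the 10. For the 44 further immediate-early genes, the median span was 6860 nt. For the lists below, it was 22191 nt (Myc and Max network) and 7533 nt (mRNA targets of Zfp36 proteins). The shares of the 4 lists and their backgrounds were not corrected for span length.

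The Myc and Max network held peaks in 3 of 13 genes (23.1%, background 14.1%), none of them in every library. Replicates 1, 2 and 3 had 2, 0 and 2 bound genes. That was 10.3% ± 8.88 per library (SD, n = 3), where the background ran between 7.02% and 8.55%. Mycn reached 3, 0 and 4 units, Max, the partner of Myc on DNA, reached 0, 0 and 3 units, and Mxd4 reached 3, 0 and 0 units. Among 18 genes whose mRNAs are known as targets of Zfp36 proteins, 4 held a peak (22.2%, background 14.1%), and 3 did so in every library (16.7%, background 3.16%). Per library the share was 20.4% ± 3.21 (SD, n = 3). Cdkn1a, the cell cycle inhibitor p21, reached 4, 9 and 0 units, the cytokine gene Lif reached 4, 7 and 3 units and Vegfa reached 6, 3 and 3 units. Lif had a locus shared by all 3 libraries. Tnf, Il3, Csf2 and Il6, cytokine mRNAs with AU-rich elements, had no listed peak.

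**Figure D4:**
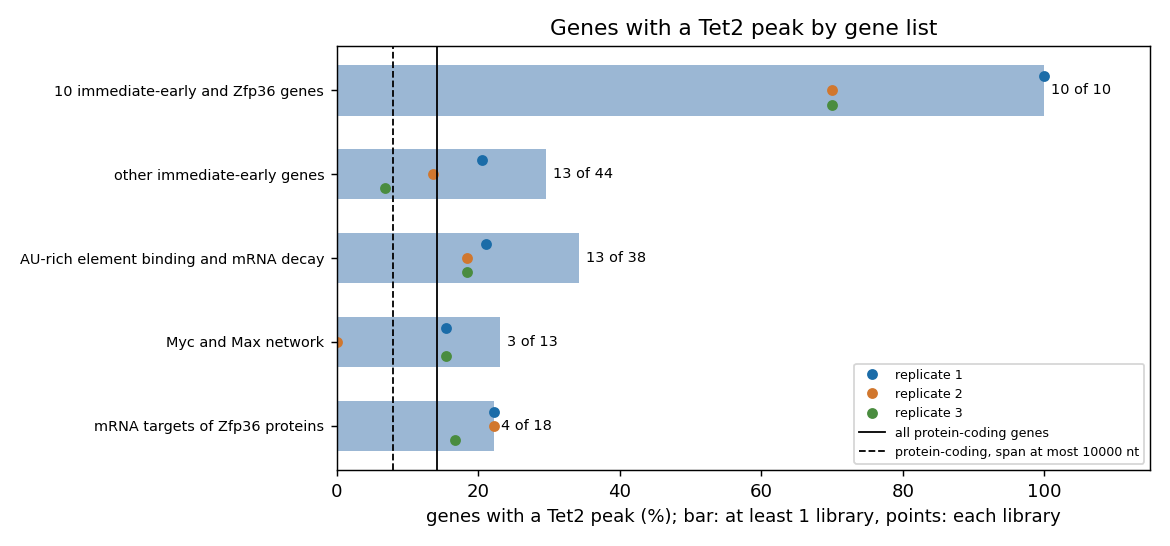
Share of genes with a Tet2 peak in percent (x axis) for the 10 genes and 4 related lists, with bars for at least 1 library and points for each library. The solid line marks all protein-coding genes (14.1%) and the broken line those with spans of at most 10000 nt (7.97%), and both are for at least 1 library. The 10 genes were chosen with such results known.

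By summed height over the 3 libraries, the protein-coding genes nearest to Zfp36l2 were Kit (34, 5 and 7 units), Rpl13a (29, 3 and 11 units), Gnb4 (18, 3 and 7 units), Ddx17 (17, 5 and 7 units) and Golga2 (18, 3 and 6 units). Likeness was the distance between log2(1 + units) over 3 libraries, 0.34 for Kit and 0.89 for Golga2.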

How the data were processed

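Tet2 CLIP was carried out on 3 replicate libraries of 1 group, mapped to the replicate numbers of the labels through the file's column headings. Reads were processed with cutadapt 1.9 and STAR 2.4.0i on mm10, per the submitters' processing notes. Peaks were called in each library by a valley-seeking algorithm, per the labels' protocols, while the version, valley depth and threshold of the caller are unknown here. The values are a signal: the authors deposited a normalized height for each peak, per the file headers. These were turned into whole units, so sequencing depth is unknown and no count model was used. Starts were read as 0-based and are printed 1-based. Gene spans, 49980 in number, came from RefSeq GRCm38.p6, which shares its coordinates with mm10, and all 10 genes matched by symbol.

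With 1 group and no control library there is no contrast to test, so values are given per library with their SD. The labels do not name separate animals or cultures, so part of that spread may be technical. The 10 genes, the 4 gene lists and all settings were chosen with earlier results of these data known. Named were the 10 genes, the 4 genes per list with the tallest peak, Dusp5 for its tie with 3 of them, the 5 nearest in height to the gene with the most peaks, genes whose spans hold such peaks, and some list genes with no peak, picked after their values were seen. The values of 1 gene that this rule names are not reported here. The alternatives tried were any overlap with the span, spans widened by 1000 nt, peaks of at least 5 units, each replicate left out, other rules of sharing, and peaks of 50 units or more left out of the height. The code for assignment and sharing was run on simulated peaks of equal width, whose replicates always overlapped, in gene spans that did not overlap. Near misses and links through a wide peak were not simulated, so that check does not cover them. Python 3.11.15 and matplotlib 3.10.9 were used.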

Additional observations from a re-analysis of the deposited data

How the results depend on the processing

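Of 33 values recomputed under other settings, 26 stayed within 1.5 times the reported count or within 1 SD of the reported mean, and 7 moved. With peaks of at least 5 units only, 5 genes had a peak in some library and 1 had one in all 3, 1 locus was shared by all 3, and the mean was 4.00 peaks per library, because the setting removes the 23 peaks of 3 or 4 units. With peaks linked at midpoints within 200 nt, 5 loci were shared by all 3, that of Jund only through replicate 3. With a reciprocal overlap of at least 0.5 of each peak, 2 were. Leaving out 1 replicate at a time gave 4 to 5 shared loci, since a pair of libraries then suffices, 8 to 10 genes with a peak, 6 to 7 with a peak in every remaining library, 10.0 to 13.0 peaks per library and 0.246% to 0.327% of the summed height. No share of all protein-coding genes was computed for pairs of libraries, so the gene counts with 1 replicate left out have no background beside them. Any overlap with the span changed none of the 5 results. No paired analysis was possible because the libraries form 1 group. Of the 35 peaks, 16 stood at 3 units, at or next to the lowest heights the lists hold, so a peak missing from a library is not shown to be absent there.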
